A study of Mus musculus with 4 samples.

Results

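Potassium channel genes were taken as all protein-coding genes of the mouse annotation whose symbol begins with Kcn, which gave 94 genes on 19 chromosomes among 21938 protein-coding genes in all. Their promoters were examined for trimethylation of lysine 4 on histone H3 (H3K4me3), using ChIP-seq (sequencing of DNA recovered by chromatin immunoprecipitation) of left cerebral cortex. The tissue came from adult female mice of the cross B6CASTF1/J aged 2 months. B6CASTF1/J animals are first-generation hybrids of C57BL/6J and CAST/EiJ, no treatment was named, and every library shared this strain, sex, age and tissue. There were 4 libraries, with 2 technical replicates from pool I (biological replicate 2) and 2 from pool J (biological replicate 1), and each pool combined 4 tissue biosamples. All libraries carried 1 donor record and nothing in the labels states how many animals the biosamples stand for, so differences between the pools may be partly technical. Peaks were available as 1 list for each pool and as a list termed replicated, which used both pools, so values are given for pool I and pool J beside the replicated value and no test between the pools was possible. Read numbers were unknown.

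Potassium channels let potassium leave or enter cells and so set the resting potential, end action potentials and shape how often a neuron fires. The genes fall into voltage-gated channels, calcium- and sodium-activated channels, inward rectifiers, two-pore leak channels and auxiliary subunits that do not form a pore of their own. H3K4me3 is found around the starts of active and poised genes, it is common at promoters rich in CpG dinucleotides, and unusually wide domains of it are known at genes of cell identity and neuronal function. In whole tissue, a mark carried by few cells and a weaker mark carried by many cells cannot be told apart.

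Most potassium channel promoters carried the mark, and where they did the marked domain was wide. Marked means here that a peak overlapped the 1000 bases either side of any annotated transcript start. By this rule 74 of the 94 Kcn genes (78.7%) were marked in the replicated list, beside 65.2% of all protein-coding genes. In the single lists 73 Kcn genes were marked in pool I, beside 64.8% of all genes, and 71 in pool J, beside 63.9%. These 71 were marked in both pools, 2 more in pool I alone (Kcna7 and Kcnj5) and none in pool J alone, and Kcna5 was marked in the replicated list and in neither pool list. Of the 74, 71 had a peak with a −log10 q of at least 10, and the other 3 were Kcna5, Kcna7 and Kcnj5.

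**Figure D1:**
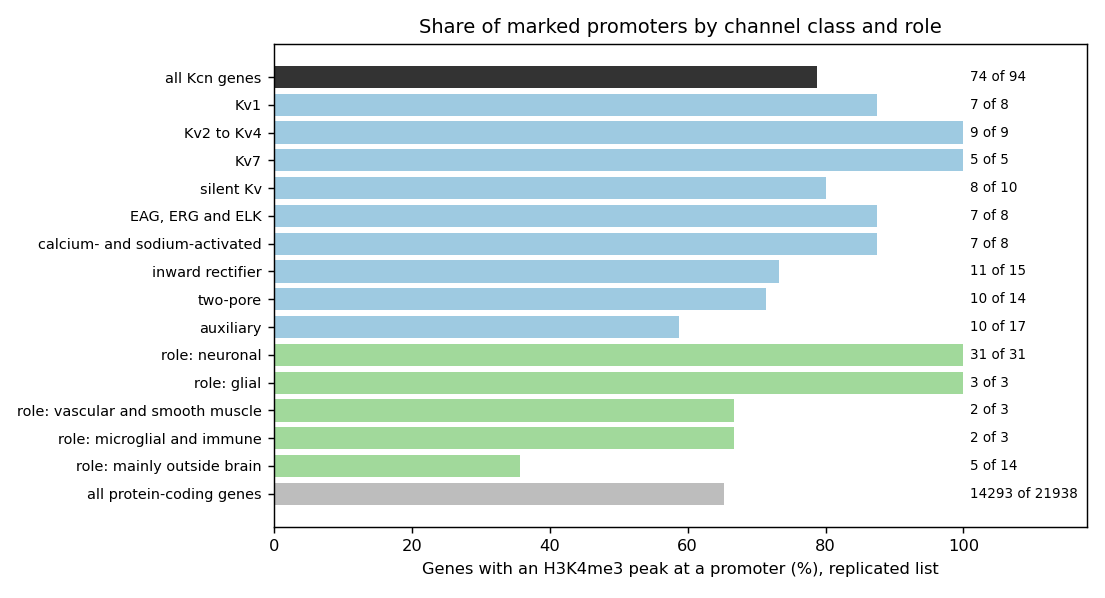
Share of genes with an H3K4me3 peak at a promoter in the replicated list (bars, %), for all 94 Kcn genes, for each channel class and role list, and for all protein-coding genes at the bottom. Numbers at the right give marked genes of all genes in the group: the bars reach 31 of 31 for the neuronal list and 5 of 14 for the list of genes known mainly outside brain.

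Domains were made by joining peaks up to 1000 bases apart, and each gene took its widest promoter domain. The marked Kcn genes had a median domain of 3741 bases in the replicated list, beside 2124 bases for all marked protein-coding genes. The Kcn medians were 3914 bases in pool I and 3584 bases in pool J (mean 3749 ± 233, SD, n = 2 pools), and the medians of all marked genes were 2193.5 bases in pool I and 2026 bases in pool J. The SD between pools shows how far the medians repeat and not how widths vary between genes. Between genes, the lower and upper quartiles were 2253.2 and 5063.5 bases for marked Kcn genes in the replicated list. For all marked genes they were 1537 and 2966 bases, so the ranges overlapped. Ranked among all marked genes, the median Kcn domain stood at percentile 85.9 of width, and 57 of the 74 were wider than the median of all marked genes, which 50% of those genes exceed by construction.

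The same promoters did not stand out in peak height. The authors' enrichment value of each peak was taken as a ratio and used here only to describe and rank peaks within 1 list. Its median was 17.8 over the marked Kcn genes, beside 20.8 over all marked genes. The Kcn median was 18.2 in pool I and 17.5 in pool J. The median Kcn rank was percentile 35.8, 19 of 74 lay above the median of all marked genes (49.9% of all), and the highest rank, that of Kcna3, was percentile 78.1. The 10 highest values were those of Kcna3 (26.4), Kcnma1 (25.7), Kcna2 (25.2), Kcnj2 (24.0), Kcnip4 (23.9), Kcnj3 (23.9), Kcnb2 (23.6), Kcnq3 (23.2), Kcnc1 (23.2) and Kcna1 (23.1). No Kcn promoter was among the top 10% of enrichment, while 29 were among the top 10% of width. Across the 74 genes width and enrichment ran together (Spearman's rho = 0.654, a description across genes that share the same libraries). Width was that of the widest domain of a gene, and enrichment that of its highest promoter peak. At genes marked around several distant starts, such as Kcnn1 and Kcnk10, these came from different domains.

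**Figure D2:**
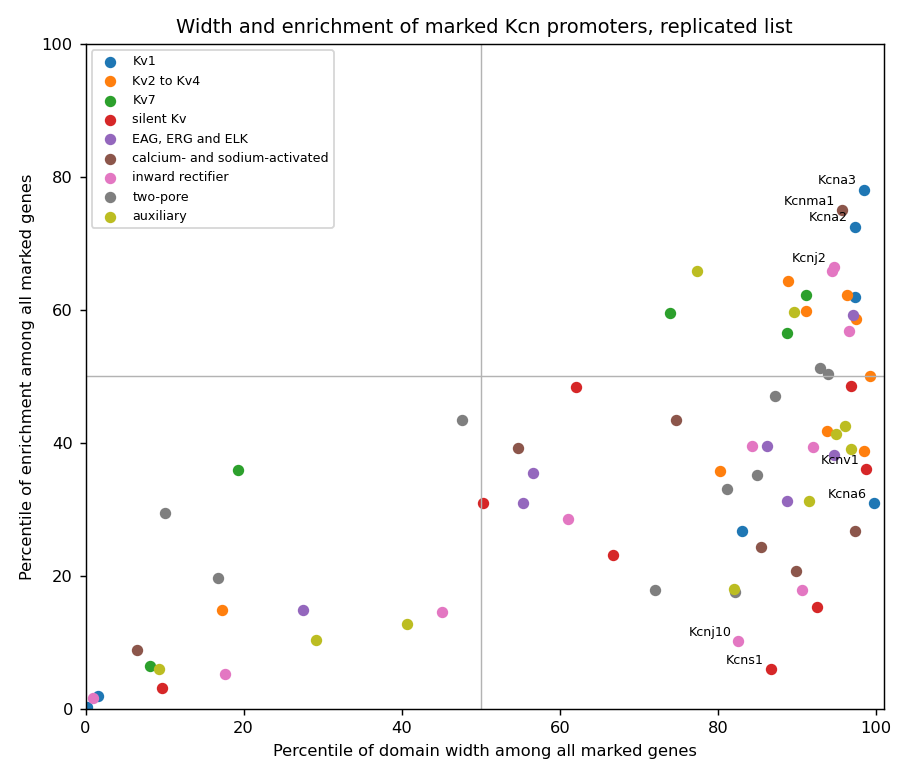
Percentile of domain width (x axis) and of enrichment (y axis) among all 14293 marked protein-coding genes, 1 point per marked Kcn gene (n = 74), replicated list, coloured by channel class, with grey lines at the median of all marked genes. Width is that of the widest domain of a gene, and enrichment that of its highest promoter peak. Most points lie right of the vertical line and below the horizontal line, and the wide and low corner holds Kcns1 and Kcnj10.

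Domains in the widest 5% of all marked genes were called broad, which put the limit at 5166.4 bases in the replicated list. Of the 74 marked Kcn genes 16 (21.6%) were broad, beside 5.0% of all marked genes. In pool I 17 were broad, beside 5.01% of all marked genes, and in pool J 19, beside 5.0%. Among the 16 were Kcna6, Kcnv1, Kcna3, Kcnd2, Kcnn2, Kcna2, Kcna1, Kcnh5, Kcnf1, Kcnip3, Kcnj4, Kcnc1, Kcnmb4 and Kcnma1, and 12 of the 16 were broad in all 3 lists. The count depended on how far apart peaks may be and still be joined: it was 16 when only touching peaks were joined, and 5 (6.76% of 74) when peaks up to 3000 bases apart were, since the limit then moved to 6398.8 bases. The median Kcn width under those settings was 3187.5 and 3864 bases, beside 1977 and 2217 bases for all marked genes.

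**Figure D3:**
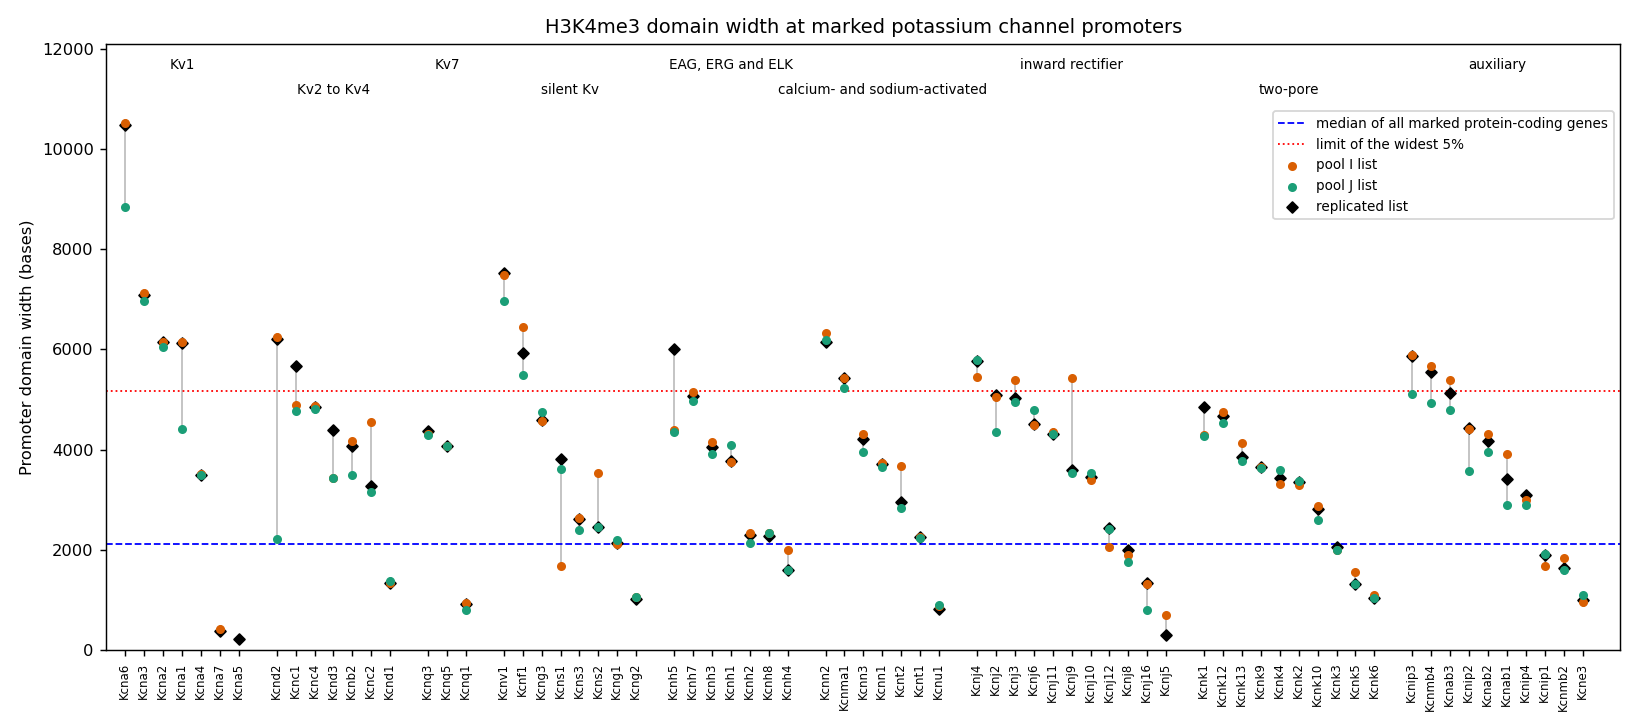
Promoter domain width in bases for 70 marked Kcn genes, grouped by channel class and ordered by the replicated list (black diamonds), with pool I (orange) and pool J (green) as points. The dashed line is the median of all marked genes (2124 bases) and the dotted line the limit of the widest 5% (5166.4 bases), both of the replicated list; Kcna6 tops the plot, and the 2 pool points of Kcnd2 lie far apart.

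Promoter sequences are shown for the genes at the ends of the range, to set the domain beside its CpG content: the widest domain (Kcna6), the highest enrichment (Kcna3), the unmarked genes of highest and lowest CpG ratio (Kcnk15 and Kcna10), and Kcna5, a Kv1 gene of the same stretch of chromosome 6 as Kcna6 with the narrowest peak, which was added after its values were seen. Each runs 5′ to 3′ on the gene's own strand through 250 bases before and 50 after a RefSeq transcript start on GRCm38.p6, with every CG dinucleotide in capitals.
Kcna6: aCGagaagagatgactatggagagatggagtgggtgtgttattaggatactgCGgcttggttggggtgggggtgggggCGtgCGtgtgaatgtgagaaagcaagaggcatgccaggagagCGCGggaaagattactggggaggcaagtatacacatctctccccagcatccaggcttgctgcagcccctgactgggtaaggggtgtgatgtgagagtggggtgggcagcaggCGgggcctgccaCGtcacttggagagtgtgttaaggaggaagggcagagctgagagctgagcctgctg
Kcna3: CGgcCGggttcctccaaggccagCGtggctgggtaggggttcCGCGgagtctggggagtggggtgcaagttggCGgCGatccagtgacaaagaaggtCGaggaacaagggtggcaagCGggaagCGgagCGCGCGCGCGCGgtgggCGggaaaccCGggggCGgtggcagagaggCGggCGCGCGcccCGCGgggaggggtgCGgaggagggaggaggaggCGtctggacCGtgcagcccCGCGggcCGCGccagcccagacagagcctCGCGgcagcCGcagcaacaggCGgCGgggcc
Kcnk15: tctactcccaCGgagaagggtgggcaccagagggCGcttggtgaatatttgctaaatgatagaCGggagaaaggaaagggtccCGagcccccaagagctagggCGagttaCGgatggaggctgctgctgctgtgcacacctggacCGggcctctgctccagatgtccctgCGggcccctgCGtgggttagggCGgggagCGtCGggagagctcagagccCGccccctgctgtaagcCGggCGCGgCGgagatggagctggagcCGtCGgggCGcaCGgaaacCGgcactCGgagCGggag
Kcna10: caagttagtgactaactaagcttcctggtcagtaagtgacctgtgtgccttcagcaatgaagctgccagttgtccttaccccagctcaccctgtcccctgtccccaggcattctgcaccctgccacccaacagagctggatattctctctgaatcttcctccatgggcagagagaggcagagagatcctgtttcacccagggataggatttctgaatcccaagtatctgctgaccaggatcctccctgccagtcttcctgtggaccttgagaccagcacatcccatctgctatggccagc
Kcna5: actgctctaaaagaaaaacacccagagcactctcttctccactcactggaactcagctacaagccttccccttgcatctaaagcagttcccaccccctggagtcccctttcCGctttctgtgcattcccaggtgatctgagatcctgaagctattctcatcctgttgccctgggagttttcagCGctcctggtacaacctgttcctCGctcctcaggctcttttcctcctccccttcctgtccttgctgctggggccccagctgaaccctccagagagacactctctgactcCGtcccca

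The 300 bases of Kcna3 (chr3:107035912-107036211, plus strand) held 37 CG dinucleotides and those of Kcna6 (chr6:126740625-126740924, minus strand) held 8. The unmarked Kcnk15 (chr2:163853500-163853799, plus strand) held 24, Kcna10 (chr3:107182893-107183192, plus strand) held 0 and Kcna5 (chr6:126535506-126535805, minus strand) held 4. The median count was 9 over RefSeq promoters of Kcn genes, close to that of Kcna6, and 14 over those of all protein-coding genes. The observed-to-expected CpG ratio of Kcna6, from a wider window, was 0.563, beside a median of 0.513 in marked Kcn genes. Peaks of the replicated list covered all 300 bases of the Kcna3 sequence, 187 of the Kcna6 sequence and 0 of the other 3. The Kcna5 sequence does not hold the annotated start used to call that gene marked (position 126535412). Its narrow peak (chr6:126535267-126535478) lay just outside the sequence. Among the RefSeq promoters matched by symbol, 94 promoters of 69 Kcn genes, the letters GGGCGG, which contain a CG and were searched on both strands, were found in 47.9%, beside 47.8% of 20150 promoters of protein-coding genes. The letters TATAAA, searched in the same way, were found in 5.32% of Kcn promoters, beside 12.1% of all.

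The Kv1 genes, which encode voltage-gated channels of axons and terminals, held 4 of the 16 broad domains, with 7 of 8 genes marked and a median width of 6133 bases. Kcna6 had the widest domain of all Kcn genes, 10480 bases (chr6:126730332-126740811), with 10516 bases in pool I and 8838 in pool J, at percentile 99.8 of all marked genes. Its enrichment was moderate, 16.6 in the replicated list. Kcna3, which encodes a channel best known from lymphocytes and microglia, had 7093 bases, with 7132 in pool I and 6972 in pool J, and the highest enrichment of the family in the replicated list, 26.4 (25.6 in pool I and 26.4 in pool J). The axonal delayed rectifiers Kcna2 and Kcna1 had almost the same replicated width. For Kcna2 it was 6142 bases, with 6157 in pool I and 6054 in pool J. For Kcna1 it was 6133 bases, with 6151 in pool I and 4402 in pool J, so that Kcna1 was below the broad limit of pool J.

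The rest of the Kv1 genes were far narrower, and 2 of them lie beside wide ones. Kcna4, which encodes an inactivating A-type channel, had 3490 bases, with 3510 in pool I and 3483 in pool J. Kcna5, a channel gene of heart and vascular smooth muscle, had a peak of 212 bases with an enrichment of 2.50 and a −log10 q of 1.25, which neither pool list held. Kcna7, known from skeletal muscle and heart, had 381 bases in the replicated list and 423 in pool I, with no peak in pool J, and its peak ended 38 bases before the start. Kcna10, known from the inner ear, was unmarked. On chromosome 6 the starts of Kcna6 and Kcna1 lie 94.3 kb apart and those of Kcna1 and Kcna5 111 kb apart, and on chromosome 3 those of Kcna3 and Kcna2 lie 65.0 kb apart and those of Kcna2 and Kcna10 81.9 kb apart. Each of these clusters thus held 2 broad domains and 1 gene with a narrow peak or none.

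All 9 genes of the Kv2 to Kv4 class, the somatodendritic and fast-spiking delayed rectifiers and the A-type channels, were marked, 4 of them with broad domains, and the median was 4845 bases. Kcnc1, a channel gene of fast-spiking neurons, had 5673 bases, with 4884 in pool I and 4772 in pool J, a replicated width above that of either pool. The replicated domain included a joined peak of 216 bases with an enrichment of 3.23, which neither pool list held. Its strongest peak alone was 4835 bases wide, below the broad limit of 5166.4 bases. Kcnc1 was broad in pool J, where the limit was 4744.7 bases, and not in pool I. Kcnb2, a delayed rectifier gene of neurons, had 4071 bases, with 4178 in pool I and 3500 in pool J. Kcnc4 had 4845 bases, with 4865 in pool I and 4812 in pool J. Kcnc2, the narrowest of its subfamily, had 3282 bases, with 4547 in pool I and 3143 in pool J.

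Within the Kcnd subfamily the dendritic A-type gene Kcnd2 showed the largest ratio between the pools of any Kcn gene. Its domain was 6204 bases in the replicated list, 6248 in pool I and 2207 in pool J, while its enrichment was 22.2 in pool I and 21.7 in pool J. A second peak of 2989 bases with an enrichment of 7.97 lay downstream in the gene and belonged to the replicated domain, and peaks of both pools met it. Kcnd3, the second A-type gene of the cortex, had 4394 bases, with 3432 in pool I and 3434 in pool J, and its domain also covered the start of the antisense gene Kcnd3os, from which ChIP signal cannot be separated. Kcnd1, on chromosome X, had 1326 bases and an enrichment of 11.0.

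The 5 Kv7 genes were all marked and none was broad, with a median of 2900 bases. Of the genes of the neuronal M-current, Kcnq3 had an enrichment of 23.2, with 20.9 in pool I and 24.1 in pool J. Kcnq5 had 22.0, and its pool values lay apart, 15.2 in pool I at percentile 24.4 and 22.7 in pool J at percentile 61.3. Kcnq3 had the widest domain, 4377 bases, with 4308 in pool I and 4299 in pool J. Kcnq1, a channel gene of heart and epithelia, had the narrowest, 922 bases with 941 in pool I and 789 in pool J, and an enrichment of 5.69.

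Silent subunits, which do not conduct alone and join Kv2 channels, were marked at 8 of 10 genes with a median of 3210 bases and spanned most of the range of the family. Kcnv1 had one of the widest Kcn domains, 7520 bases, with 7492 in pool I and 6962 in pool J, and Kcnf1 had 5928 bases, with 6454 in pool I and 5486 in pool J. Kcns1 had the lowest ratio of pool I to pool J in the family: 3811 bases in the replicated list, 1672 in pool I and 3604 in pool J. Its enrichment was low for such a width, 5.39, at percentile 5.97. Kcng3, the widest of its subfamily, had 4582 bases, with 4579 in pool I and 4760 in pool J. Kcns2 had 2452 bases, with 3530 in pool I and 2450 in pool J. Kcns3 and Kcng1 had 2609 and 2134 bases in the replicated list. The narrowest silent subunit, Kcng2, had 1023 bases and an enrichment of 4.01 at its start, while an exonic peak of it 67299 bases from the start reached 10.8. Kcng4 and the retinal subunit gene Kcnv2 were unmarked.

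Among the EAG, ERG and ELK channel genes, 7 of 8 were marked, 1 of them broad, with a median of 3769 bases. Kcnh5 had 6017 bases in the replicated list but 4388 in pool I and 4356 in pool J, and it was broad in neither pool. The replicated domain included joined peaks of 310 and 221 bases, with enrichments of 2.49 and 2.33, which neither pool list held. Its strongest peak alone was 4345 bases wide. Kcnh7, an ERG gene of neurons, had 5076 bases, with 5140 in pool I and 4971 in pool J. Kcnh3, a channel gene of forebrain neurons, had 4051 bases, Kcnh1 3769 and Kcnh8 2269. The narrowest marked member was Kcnh4, with 1595 bases in the replicated list, 1994 in pool I and 1594 in pool J. Kcnh2, which encodes the ERG channel of cardiac repolarisation, had 2295 bases at its start and a separate exonic peak 3024 bases from the nearest start with an enrichment of 12.2. Kcnh6, the third ERG gene, was unmarked at its starts, yet an exonic peak of 1145 bases lay within the gene, its middle 6712 bases from the nearest start, with an enrichment of 12.4 and a peak in both pools.

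Calcium- and sodium-activated channel genes were marked at 7 of 8, 2 of them broad, with a median of 3713 bases. Kcnma1, which encodes the large-conductance BK channel, had 5421 bases, with 5432 in pool I and 5236 in pool J, and the second highest enrichment of the family in the replicated list, 25.7. Its 7 groups of starts, set apart by more than 2000 bases, included 1 marked group, which was the second from the 5′ end. Of the small-conductance SK genes, Kcnn2 had 6144 bases, with 6321 in pool I and 6180 in pool J, Kcnn3 had 4216 bases, with 4303 in pool I and 3946 in pool J, and Kcnn1 had 3713 bases, with 3730 in pool I and 3644 in pool J. Kcnn4, the intermediate-conductance gene of red cells and immune cells, was unmarked. Of the sodium-activated genes, Kcnt2 had 2948 bases, with 3672 in pool I and 2827 in pool J, and Kcnt1 2248 bases, with 2255 in pool I and 2232 in pool J. Kcnu1, a gene of sperm, had 822 bases and an enrichment of 7.12, at its last group of starts alone.

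The inward rectifiers, which favour potassium entry and hold the resting potential, were marked at 11 of 15 genes with a median of 3595 bases. Only Kcnj4 was broad in the replicated list, but 3 genes were broad in pool I (Kcnj3, Kcnj4 and Kcnj9) and 3 in pool J (Kcnj3, Kcnj4 and Kcnj6). Kcnj4, of the strong rectifier group of forebrain neurons, had 5763 bases, with 5448 in pool I and 5785 in pool J, and its relative Kcnj2 had 5084 bases, with 5049 in pool I and 4351 in pool J, and an enrichment of 24.0. Genes of the G protein-gated channels of neurons were all wider than the median of all marked genes, apart from Kcnj5. Kcnj3 had 5026 bases and an enrichment of 23.9, with a width of 5385 in pool I and 4945 in pool J. Kcnj6 had 4502 bases, with 4495 in pool I and 4795 in pool J. Kcnj9 had 3595 bases, with 5425 in pool I and 3534 in pool J, a ratio of 1.54.

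Kcnj5, the G protein-gated channel gene known mainly from the atrium, had a peak of 305 bases in the replicated list and 699 in pool I with none in pool J, and the replicated peak ended 182 bases before the start. The astrocytic gene Kcnj10 lies 11.9 kb from Kcnj9 and had 3460 bases, with 3396 in pool I and 3533 in pool J, at an enrichment of 7.94, whereas Kcnj9 had 18.7. Its partner in glia, Kcnj16, had 1339 bases, with 1315 in pool I and 796 in pool J, and an enrichment of 5.08. Of the sulfonylurea-receptor-linked channels, Kcnj11 had 4305 bases, with 4348 in pool I and 4303 in pool J, and the vascular gene Kcnj8 2000 bases, with 1885 in pool I and 1754 in pool J. Kcnj12, a strong rectifier like Kcnj2, had 2424 bases, with 2052 in pool I and 2421 in pool J. Unmarked were the kidney gene Kcnj1, the epithelial gene Kcnj13, and Kcnj14 and Kcnj15.

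Two-pore channels, which carry leak currents, were marked at 10 of 14 genes with a median of 3386 bases, and none was broad. The widest in the replicated list was Kcnk1, with 4856 bases, 4291 in pool I and 4264 in pool J, and an enrichment that differed between the pools, 22.8 in pool I and 12.4 in pool J. Kcnk12 had 4667 bases and was the widest in each pool, with 4751 in pool I and 4521 in pool J. Kcnk13, a microglial gene, had 3858 bases, with 4132 in pool I and 3771 in pool J. The mechanosensitive channel gene Kcnk2 had 3347 bases, with 3301 in pool I and 3369 in pool J, at the third of its 5 groups of starts. The acid-sensitive channel genes Kcnk9 and Kcnk3 had 3658 and 2060 bases in the replicated list. Kcnk4, a mechanosensitive channel gene of neurons, had 3425 bases, Kcnk10 2818 and Kcnk5 1310. The narrowest, Kcnk6, had 1042 bases, with 1098 in pool I and 1026 in pool J. Kcnk7, Kcnk15, the pancreatic gene Kcnk16 and the sensory ganglion gene Kcnk18 were unmarked.

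Auxiliary subunits were split by subfamily. All 4 Kcnip genes, whose products bind Kv4 channels and calcium, and all 3 Kcnab genes, which encode cytoplasmic beta subunits of Kv1, were marked. Only 2 of 4 Kcnmb genes (BK beta subunits) and 1 of 5 Kcne genes were, and Kcnrg was unmarked. Kcnip3 had 5859 bases, with 5888 in pool I and 5106 in pool J, and Kcnip4 had the highest enrichment of these, 23.9, with a width of 3093 bases. Kcnip2 had 4429 bases, with 4408 in pool I and 3572 in pool J. The narrowest Kcnip domain was that of Kcnip1, with 1898 bases, 1682 in pool I and 1910 in pool J. The neuronal BK subunit gene Kcnmb4 had 5548 bases, with 5669 in pool I and 4922 in pool J, in a domain that also covered the start of the antisense gene Kcnmb4os2. Kcnmb2 had 1635 bases, with 1826 in pool I and 1599 in pool J, and Kcnmb1 of smooth muscle and Kcnmb3 were unmarked. Kcne3, the 1 marked Kcne gene, had 995 bases, with 965 in pool I and 1097 in pool J, and Kcne1, Kcne1l, Kcne2 and Kcne4 were unmarked.

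The Kcnab genes held both cases of a domain shared with a start of another protein-coding gene, against 20.3% of all marked genes that shared one. The Kcnab2 domain of 4170 bases also covered the start of Nphp4. That of Kcnab3, 5131 bases, also covered starts of Cntrob and Trappc1, and its strongest summit lay 2605 bases upstream of the Kcnab3 start. Its width therefore cannot be assigned to Kcnab3 alone. The enrichment of 19.1 was that of another peak in the domain, 1728 bases wide, at the Kcnab3 start. Kcnab1, with an unshared domain, had 3404 bases, with 3914 in pool I and 2903 in pool J.

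The Kcn genes were also listed by known site of action. All 31 genes of a list of neuronal delayed rectifier, A-type, M-type, activated, G protein-gated and leak channels were marked, beside 65.2% of all genes, with widths of 2248 bases or more and a median of 4377 bases, and 9 were broad, 29.0% beside 5.0% of all marked genes. Their medians were 4308 bases in pool I and 4065 in pool J. The 3 glial genes (Kcnj10, Kcnj16 and Kcnk1, the last also in the neuronal list) were all marked. Of 3 vascular genes 2 were marked in the replicated list and 1, Kcnj8, in either pool, and of 3 microglial and immune genes Kcna3 and Kcnk13 were marked and Kcnn4 was not.

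By comparison, 5 of 14 genes known mainly outside brain (35.7%) were marked (Kcna7, Kcne3, Kcnk5, Kcnq1 and Kcnu1), beside 65.2% of all genes. None of these was broad, beside 5.0% of all marked genes. Their widths lay between 381 and 1310 bases, a median of 922 bases, beside 2248 bases or more in the neuronal list. All marked protein-coding genes had a lower quartile of 1537 bases and a median of 2124 bases. Some Kcn genes in neither list had widths between these ranges, among them Kcnd1 (1326 bases), Kcnh4 (1595), Kcnip1 (1898) and Kcnk3 (2060). The gap between the lists thus depended on which genes were listed. When each gene was represented by its 5′-most start alone, 3 of the 14 were marked. Their enrichment lay between 3.47 and 13.2, with a median of 5.69, whereas that of the neuronal list lay between 12.3 and 25.7, with a median of 19.2, so the enrichments overlapped at Kcnk5. The 9 unmarked genes of the list were Kcna10, Kcne1, Kcne2, Kcnj1, Kcnj13, Kcnj15, Kcnk16, Kcnk18 and Kcnv2. The lists were drawn up from general knowledge with earlier results of these data known, and the counts describe them without a test.

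The 20 unmarked genes had no peak close by. The nearest peak of the replicated list lay between 4643 bases (Kcnn4) and 174561 bases (Kcnj15) from the nearest start, and none of the 20 was marked in either pool list. No unmarked gene became marked when the window was widened to 2500 bases. Kcne2 had its nearest peak at 4822 bases, Kcnj14 at 5253 and Kcnh6 at 6140 (to the near edge of the exonic peak in the gene itself). Kcne1l, on chromosome X, had it at 8246 bases, Kcnk7 at 8678 and Kcnrg at 6710.

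Widths of the 71 genes marked in both pools followed each other closely (Spearman's rho = 0.91, across genes). The domain was wider in pool I at 52 of the 71, against 76.6% of all genes marked in both pools, with a median ratio of pool I to pool J of 1.04 for Kcn genes and 1.07 for all. A ratio of 1.5 or more in either direction was found at 4 of 71 (5.63%), a share close to the 4.79% of all genes: Kcnd2, Kcnj9 and Kcnj16 were wider in pool I, and Kcns1 was wider in pool J.

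Most of the extra width lay downstream of the start. For the 72 domains that covered no other protein-coding start, the median reach was 2593.5 bases downstream and 795 bases upstream of the start nearest the summit, beside 1255 and 667 bases for 11388 such domains of all genes. Of the 72, 61 reached further downstream than upstream, as did 84.7% of all. The downstream reach thus differed from that of all genes much more than the upstream reach did. Kcna6 reached 9819 bases downstream and 660 upstream.

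**Figure D4:**
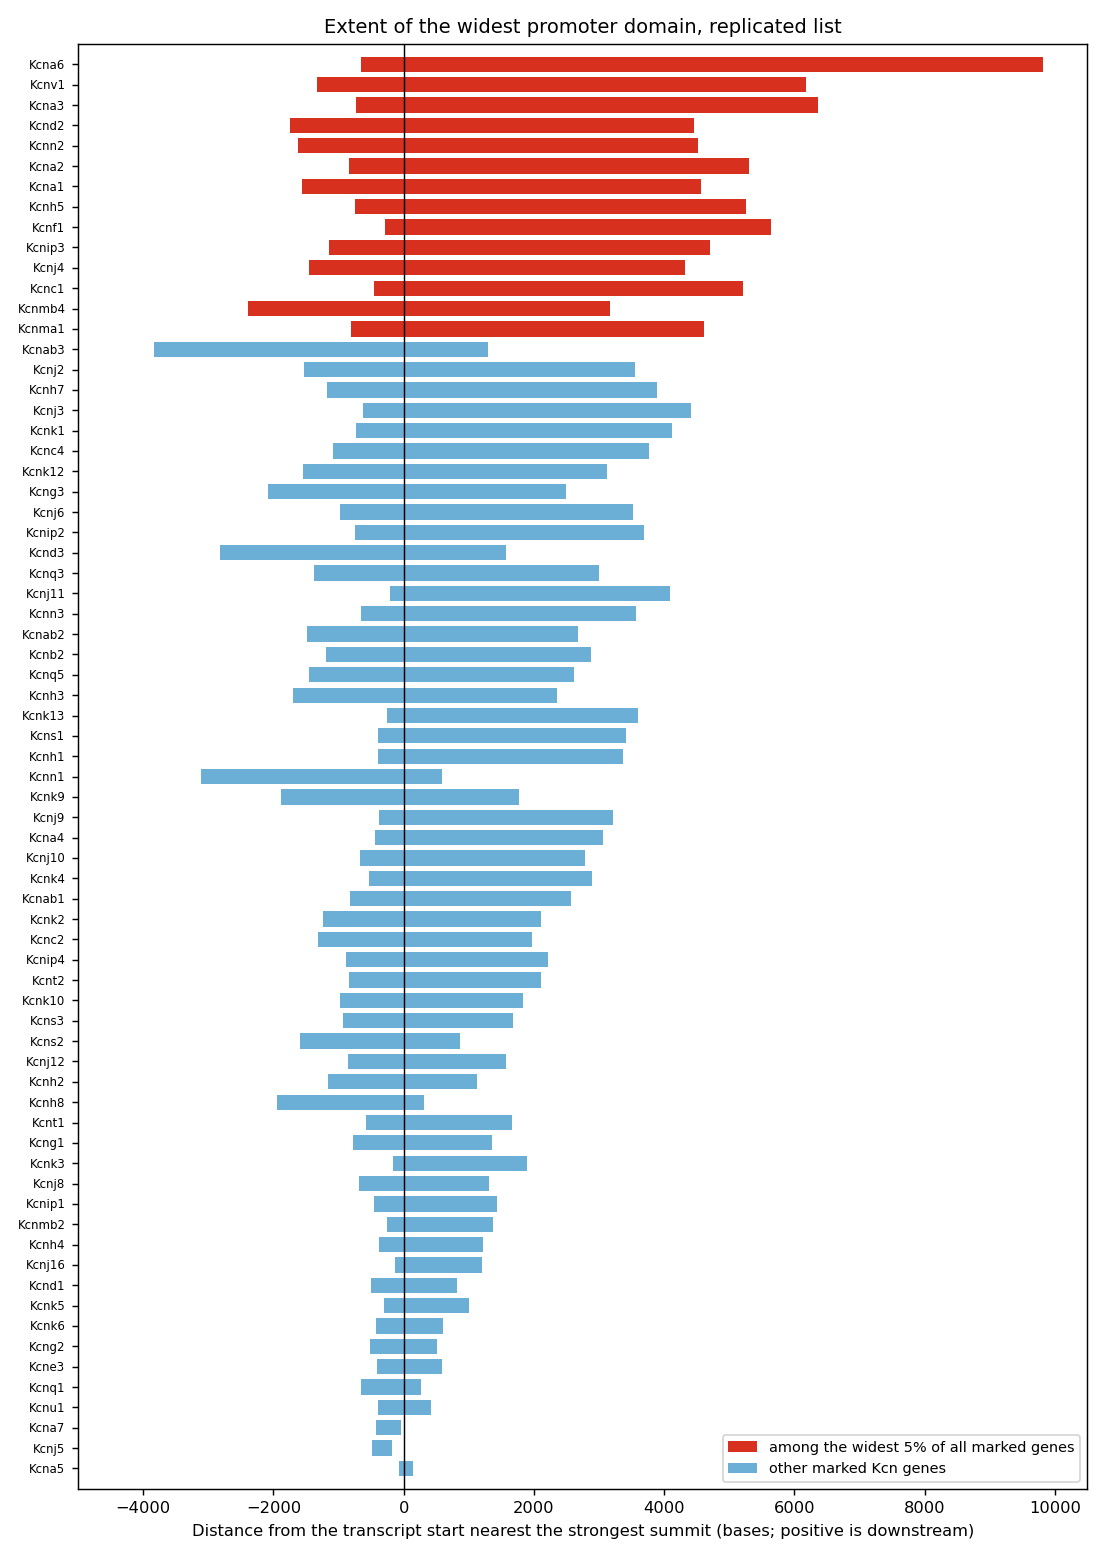
Extent of the widest promoter domain of 70 marked Kcn genes, replicated list, in bases from the transcript start nearest the strongest summit (0), positive downstream, ordered by width with the widest at the top. Red bars are broad domains; most bars reach further right than left, and those of Kcna6, Kcna3 and Kcnv1 reach the furthest downstream.

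At 7 genes the domain covered the entire coding sequence: Kcna1, Kcna2, Kcna3, Kcna6, Kcnf1, Kcnj11 and Kcnv1. In all but Kcnv1 the coding sequence is 1 uninterrupted block, as it is in 19 Kcn genes, of which 15 were marked. At 8 of those 15 the domain covered none of it, among them Kcna4, Kcnj2 and Kcnj4, whose coding exon lies away from the promoter. Median widths were 4305 bases for the 15 and 3713 bases for the 59 marked genes whose coding sequence is split. The annotated Kcna3 gene spans 1902 bases, and its domain ran on past the annotated end, with 73.2% of its length outside the gene.

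Several genes carried the mark at more than 1 group of starts. Of the 74 marked genes 11 had 2 or more marked groups of starts, beside 11.3% of all marked genes, among them Kcna6, Kcnh3, Kcnip2, Kcnip3, Kcnip4, Kcnk3, Kcnk10, Kcnn1, Kcnn2 and Kcnt1. Both marked groups of Kcna6 and of Kcnip2 lay in 1 shared domain, and the second group of Kcnh3 lay past the end of its domain, within the 1000 bases that counted as marked. Kcnip4 had 4 marked groups of 6, with widths of 3093, 1005, 550 and 568 bases in order along the gene and enrichments of 23.9, 6.05, 6.65 and 3.74, and each was marked in both pools. At Kcnn2 the second group carried the 6144-base domain and the first one of 1562 bases. Kcnn1 had its wide domain of 3713 bases, of low enrichment at the start (5.07), at the first group and a narrow one of 1109 bases with an enrichment of 14.7 at the second. The wide domain of Kcnn1 lay mostly upstream (3119 bases), with 84.0% of it outside the gene. Its strongest summit was 2394 bases upstream of the start.

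The other named genes of this kind had 1 wider and 1 narrower group. In order along the gene, Kcnip3 had 5859 and 1672 bases, with enrichments of 18.6 and 6.15. Kcnt1 had 1681 and 2248 bases, with enrichments of 15.5 and 18.7. Kcnk10 had 761 and 2818 bases, with enrichments of 12.4 and 11.3, so its narrower group had the higher value. At Kcnk3 the second group had a peak of 527 bases with an enrichment of 3.31, which neither pool list held. At 6 genes (Kcne3, Kcnip1, Kcnj16, Kcnk2, Kcnma1 and Kcnu1) the 5′-most annotated start was itself unmarked, beside 5.41% of all marked genes, and the mark lay at a later start.

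Peaks were also found in gene bodies. The bodies of 29 of the 94 Kcn genes (13.0% of all protein-coding genes had such a peak; gene length was not matched) held 44 peaks more than 1000 bases away from every annotated start, and their medians were 538.5 bases in width and 3.83 in enrichment. Of these, 18 belonged to the promoter domain of the gene and 26 lay outside it, 21 were met in both pools and 8 in neither, and 31 were intronic. Enrichment reached 10 or more at 6, among them those of Kcnh6 (12.4), Kcnh2 (12.2), Kcnk12 (11.8), Kcng2 (10.8) and Kcnj3 (10.1). Those of Kcnk12 and Kcng2 were exonic, near the end of the gene, with observed-to-expected CpG ratios of 0.924 and 0.802. At Kcng2 this distant peak was higher than the promoter peak.

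CpG content differed between marked and unmarked Kcn genes, as it did for all genes. The observed-to-expected CpG ratio around the 5′-most start had a median of 0.513 in the 74 marked and 0.225 in the 20 unmarked Kcn genes, beside 0.605 and 0.168 in all marked and all unmarked genes. In the deciles of this ratio over all genes, counted from the lowest, 13 of 30 Kcn genes of deciles 1 to 4 were marked, 47 of 50 of deciles 5 to 8, and 14 of 14 of deciles 9 and 10. All genes in the same deciles as the Kcn genes would give a marked share of 72.3% on average, between the 78.7% of Kcn genes and the 65.2% of all genes. The ranges overlapped: the unmarked Kcnk15 had a ratio of 0.618, and the marked Kcne3 and Kcnma1 had 0.0765 and 0.106 at 5′-most starts that carried no peak.

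Within deciles of like CpG ratio the Kcn domains were still mostly wider. Of the 74 marked Kcn genes 58 were wider than the median of all marked genes of their own decile, beside 50% of all marked genes. In deciles 9 and 10 the median was 4756 bases for Kcn genes and 2642 bases for all marked genes. In decile 5 it was 3490 bases for the 15 marked Kcn genes and 1564 bases for all, and in decile 6, with 15 more, 3713 and 1752 bases. Kcna1, Kcnn2, Kcnf1 and Kcnv1 were among the broad genes of decile 5, with ratios of 0.407, 0.462, 0.469 and 0.470. The Kcnn2 ratio is that of its 5′-most start, away from its broad domain. Across marked genes the ratio and the width had a Spearman's rho of 0.271 in Kcn genes and 0.398 in all genes.

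**Figure D5:**
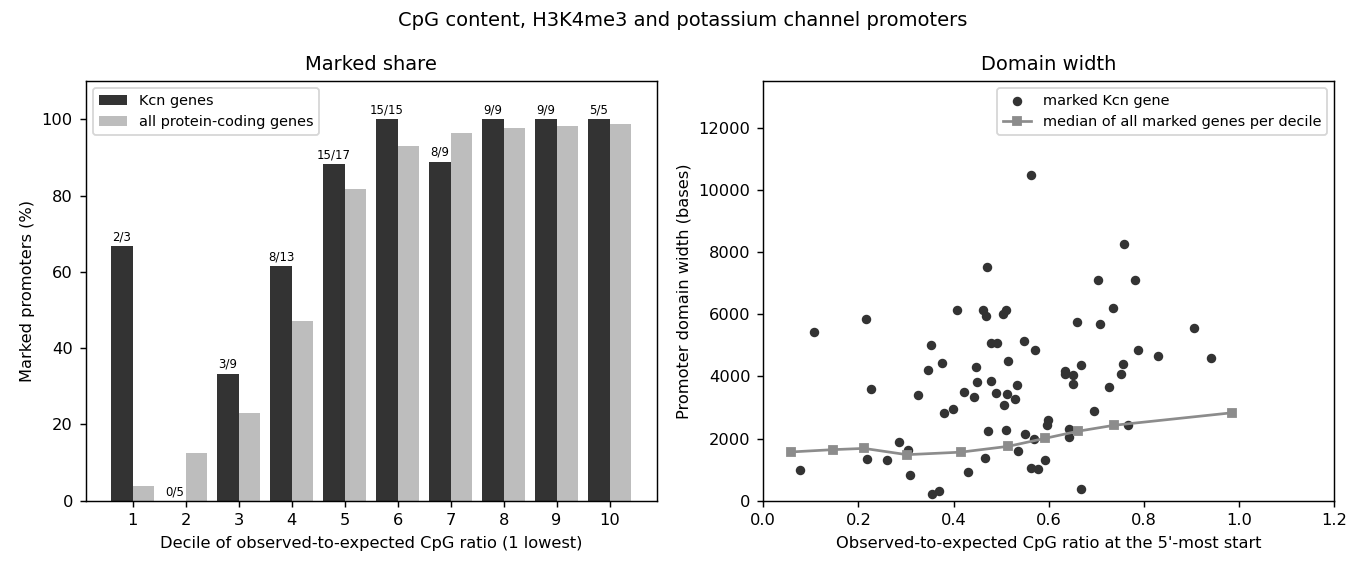
Left, share of marked promoters (%) in each decile of the observed-to-expected CpG ratio, with Kcn genes as dark bars (marked of all Kcn genes above each bar) and all protein-coding genes as grey bars. Right, domain width in bases against the ratio for the 74 marked Kcn genes (dark points), with the median of all marked genes per decile (grey squares): most dark points lie above the grey line, and the Kcna6 point at 10480 bases is the highest.

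A set of sodium and calcium channel genes, picked by symbol (Scn followed by a digit, or Cacn), was measured the same way. The symbols also take in genes that do not encode a pore subunit. Of the 40 genes of this set 33 (82.5%) were marked and 9 of the 33 (27.3%) were broad. Their medians were 3363 bases and 18.8 in enrichment. Among Kcn genes 78.7% were marked and 21.6% of those were broad, with medians of 3741 bases and 17.8. Taken apart, 10 of 14 Scn genes (71.4%) were marked and 1 of the 10 was broad, with a median of 3002 bases, while 23 of 26 Cacn genes (88.5%) were marked and 8 of the 23 were broad (34.8%), with a median of 3552 bases. The broad share of the Kcn genes thus lay between those of both families, and the differences were not tested. The broad Cacn genes were Cacna1c and Cacna1e, which encode pore subunits, and Cacna2d1, Cacna2d3, Cacnb1, Cacnb3, Cacng2 and Cacng3, which do not. Of 21 partner genes, whose products bind, traffic or modulate potassium channels or carry the related HCN currents, 20 were marked and 1, Ank2, was broad, with a median of 3063 bases. The Kv4 partners Dpp6 and Dpp10 had 3685 and 3380 bases, the Kv2 partner Amigo1 4522 bases, with 4617 in pool I and 1702 in pool J, and the Kv1 cluster organiser Cntnap2 3859 bases. Lrrc52, a subunit gene of the sperm channel encoded by Kcnu1, was the 1 unmarked partner.

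The tissue label was checked against defining markers. The neuronal markers Rbfox3, Snap25, Syt1, Slc17a7, Camk2a, Neurod6, Gad1 and Gad2 were marked, as were 65.2% of all protein-coding genes. Enrichment lay between 18.7 and 23.5 at Rbfox3, Snap25, Syt1, Slc17a7 and Camk2a. It was 11.9 at Neurod6, and lower at the inhibitory markers Gad1 (6.91) and Gad2 (6.1). The interneuron marker Vip was unmarked. Of the astrocyte markers Slc1a2 had an enrichment of 20.0, Aqp4 had 4.36 and Gfap was unmarked. Of the oligodendrocyte markers Mbp had 20.7, Mog had 3.34 and Opalin was unmarked. The choroid plexus marker Ttr and the liver marker Alb were unmarked, but the liver marker Apoa1 had 1180 bases with an enrichment of 11.7, without a peak in pool I, and the erythroid marker Klf1 had 1220 bases with 16.4. Among microglial markers Cx3cr1 and Tmem119 had peaks of 211 and 198 bases at an enrichment of 3.13 each, absent from both pool lists, and P2ry12 was unmarked in the replicated list. Of the channel genes listed as microglial and immune, Kcna3 had 7093 bases at 26.4 and Kcnk13 3858 bases at 20.2, while Kcnn4 was unmarked. The endothelial marker Cldn5 and the mural marker Pdgfrb had enrichments of 5.65 and 6.37. The part of these cell types in the channel gene values was not tested.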

How the data were processed

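H3K4me3 ChIP-seq of 4 libraries in 2 pools was grouped by pool as labelled. The authors deposited mm10 peak lists, per the labels and accompanying text files: 1 for each pool, 1 for their reads combined and 1 termed replicated. Aligner, peak caller, read numbers and use of a control were all not given in the sources used here, so the depth and the precision it gives are unknown. Peak positions and summits are in bases as deposited, and are printed counted from 1. The unit of the authors' enrichment value was not given. It was taken as a ratio for each peak and used only to describe and rank peaks within a list. The −log10 q values deposited by the authors served as filters.

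Genes were those of GENCODE M21 on mm10, without the mitochondrial chromosome. A marked promoter needed 1 base of overlap with 1000 bases either side of any start. CpG ratios came from the window of the 5′-most start on GRCm38.p6, and promoter sequences from RefSeq on the same build. Named genes were the 10 widest and 10 of highest enrichment, the extremes of each subfamily, the unmarked, those marked in 1 pool alone or in neither, those differing 1.5-fold between pools and those with several marked groups of starts. Other members and partners named were chosen after their values were seen. The members, lists and rules were chosen with earlier results of these data known. No test was made, since each pool gave 1 list. Alternatives were a window of 500 or 2500 bases, the 5′-most start, q filters, single lists, overlap, merging distance and the broad limit. The overlap and merging steps were tested on simulated peaks. Python 3.11.15, pandas 2.3.3, numpy 2.4.6 and pysam 0.24.0 were used. Some marked genes enter the counts and medians but are not reported here by name.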

Additional observations from a re-analysis of the deposited data

How the results depend on the processing

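Of 294 recomputed values 283 stayed within 1.5 times of the reported count or within 1 SD between pools. These values are not independent, since some classes and subfamilies, such as Kv1 and Kcna, hold the same genes. Many subfamilies hold few genes. Without the subfamily counts 139 stayed and 8 moved. With 2 pools, a single-pool median lies within 1 SD of their mean by construction. Marked Kcn genes ranged between 68 (5′-most start alone) and 74. The values that moved were these. Broad Kcn genes numbered 5 when peaks up to 3000 bases apart were joined and 29 when broad meant the widest 10%. The median Kcn width was 3187.5 bases when only touching peaks were joined. With the 5′-most start alone, marked genes known mainly outside brain numbered 3, and the single marked gene of each of the subfamilies Kcne, Kcnma and Kcnu was lost, leaving 0. Marked vascular genes numbered 1 at a −log10 q of at least 5, 1 at 10 or more, and 1 in either pool list alone. With pool I alone and pool J alone, the marked count was 73 and 71, the broad count 17 and 19, the median width 3914 and 3584 bases and the median enrichment 18.2 and 17.5. No paired analysis was possible because each pool gave 1 peak list and no result came from a test. The read depth was unknown, so a promoter without a peak was not detectably marked in these lists and is not shown to lack the mark.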
